A study of Hydra vulgaris with 40 samples.

Results

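The module is a set of 100 Hydra vulgaris genes with a higher signal late than early in budding, a nearly level signal during head regeneration, and no strong preference for any adult tissue. It was taken from 17438 genes, each measured in 40 RNA-seq samples. All values are the deposited signal, an expression level on the scale of TPM, a read share corrected for transcript length. The members were chosen from the measured values themselves. With 1 added to the mean of the 2 samples of each condition, the highest of the 5 tissues had to be less than 1.5 times the second, the second less than 2 times the third, and the fourth less than 4 times the fifth. These limits left 12019 genes. The highest of the 7 regeneration times then had to be less than 1.5 times the lowest, which left 4437 genes, and the mean at bud stage 10 had to reach 5, which left 2593. The 100 of these with the largest ratio of stage 10 to stage 1 form the module. The levels in the tissues, during regeneration and at bud stages 1 and 10 are therefore given as a description without a test. Stages 3 to 8 of budding, 12 samples in all, were not used in the choice.

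The polyps were fed with brine shrimp larvae and starved before tissue was taken, in every group. Buds supplied 8 groups, the upper end of the bud being cut off at stages 1, 3, 4, 5, 6, 7, 8 and 10 of budding. Head regeneration supplied 7 groups. Here each sample was 1 animal that was cut below the head and left for 0 to 48 h (with sampling at 2, 4, 6, 12 and 24 h in between), and RNA was then taken from the upper body next to the wound. Tentacles, hypostome (the cone around the mouth), body column, budding zone and foot of adults supplied the remaining 5 groups. Each group had 2 samples, and outside the regeneration series the labels do not say how many animals went into a sample. No transgene, mutation or drug was named for any group.

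Budding is the asexual reproduction of Hydra. The wall of the lower body column bulges out, the bud lengthens, a new hypostome and tentacles form at its free end, a foot forms at its base, and the bud detaches as a small polyp. A head also forms in regeneration, but from existing adult tissue at a wound. Tentacles are covered by battery cells, epithelial cells that carry many stinging cells. The gene identifiers of the members were paired with names by neither the files nor the gene table used here (0 of the 17438 identifiers matched), so that the functions of the members are not given, no sequence is shown, and the tissue labels could not be checked against marker genes. Members are called by their rank in the stage 10 to stage 1 ratio, and 4 identifiers are printed.

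The ratios that defined the module ran from 115.7 to 2.05, with a median of 2.65. They exceeded 10 in 15 members, 5 in 27 and 3 in 38. For the 2593 genes that met the other conditions the median was 1.03. The boundary was not marked by a gap. The member of rank 100 went from a mean of 2.92 at stage 1 to 7.05 at stage 10, a ratio of 2.05. The first gene left out went from 9.13 to 19.7, a ratio of 2.04. The next 100 genes in this order, with a median ratio of 1.83, are used below as a neighbouring set. Levels of the members were modest. The mean at stage 10 was below 10 in 32 members, from 10 to below 50 in 45 and at least 50 in 23. Both stage 10 samples lay above both stage 1 samples in 95 members (33.1% of all genes), which the choice itself favours.

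The stages between those ends did not form even steps. The median signal over the members was 4.45 at stage 1, 5.95 at stage 3, 10.6 at stage 4, 12.0 at stage 5, 13.0 at stage 6, 9.24 at stage 7, 16.9 at stage 8 and 17.8 at stage 10. Expressed on the log2 scale as a part of the whole stage 1 to stage 10 difference, the median member had covered 23.1% at stage 3, 58.6% at stage 4, 72.8% at stage 5, 75.2% at stage 6, 46.2% at stage 7 and 95.6% at stage 8. Stage 7 therefore lay below its neighbours, and the levels of stage 8 were close to those of stage 10. Between stages 6 and 7 the signal was lower in 86 of 100 members, and between stages 7 and 8 it was higher in 94. With log2(value + 1) averaged per stage instead, stage 7 was below stage 6 in 83 members. This held for 89 of the next 100 genes and 8998 of the 17438 genes. Stage 8 was above stage 7 in 94 members, 96 of the next 100 genes and 10075 of all genes. The low stage 7 was thus shared with the next 100 genes, while all genes were split almost evenly between lower and higher from stage 6 to 7. Of the 2593 genes that met the conditions, stage 7 was below stage 6 in 1124 and above it in 1469. The lowest of the 8 stages was stage 1 in 74 members and stage 3 in 22. The highest was stage 10 in 59 and stage 8 in 27. These are bulk samples, in which more cells of a type and more RNA per cell cannot be told apart.

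**Figure D1:**
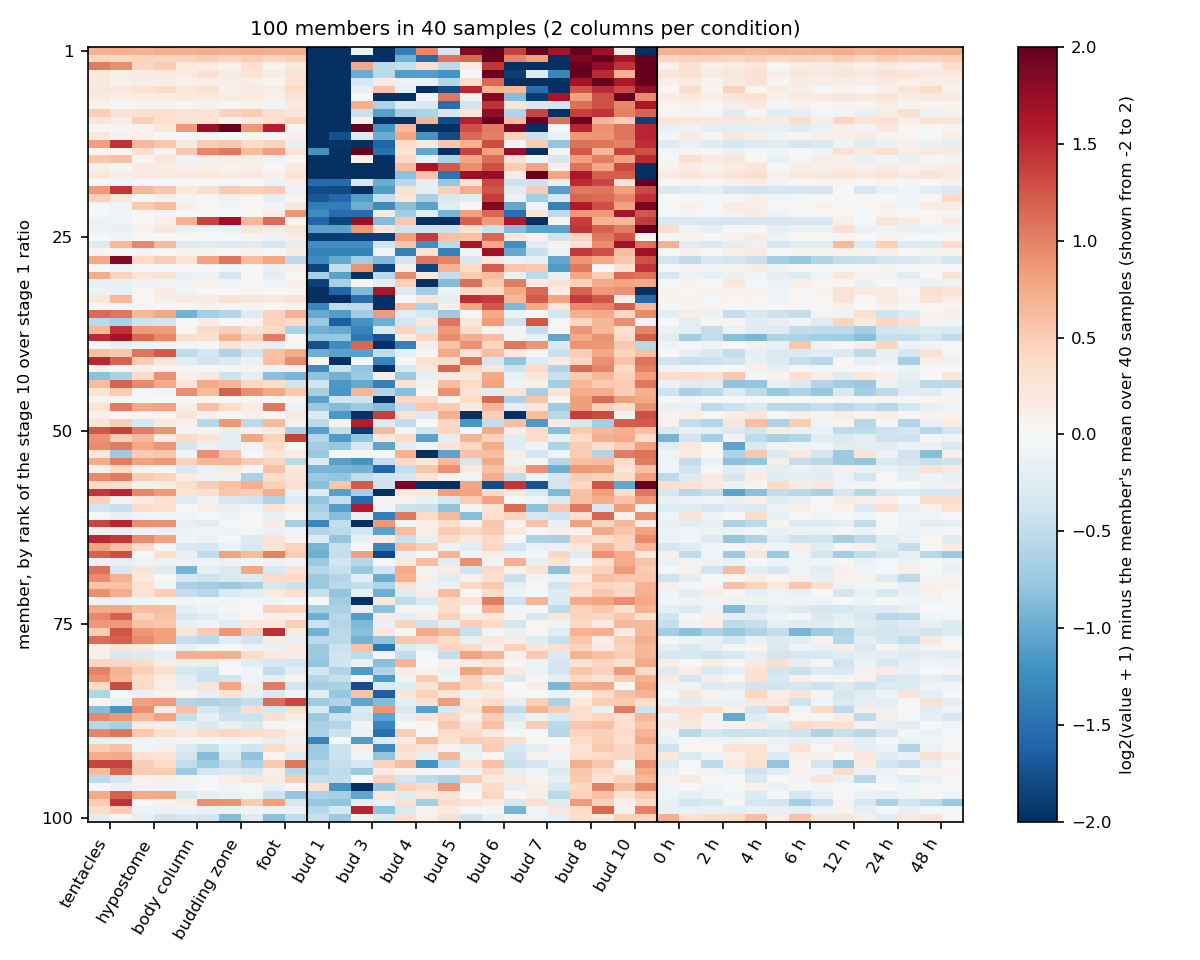
Each row is a member of the module, ordered by the stage 10 to stage 1 ratio (rank 1 at the top), and each column is a sample (2 per condition: 5 adult tissues, 8 bud stages, 7 regeneration times). Colour gives log2(value + 1) minus the member's mean over the 40 samples. Within the buds, blue at stages 1 and 3 gives way to red at stages 8 and 10, and many upper rows hardly change colour across the tissues and regeneration times.

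The 2 samples of a stage did not always lie close together. The member median was 4.20 and 3.41 in the stage 1 samples, 5.78 and 4.95 at stage 3, 10.9 and 10.3 at stage 4, and 11.7 and 12.1 at stage 5. It was 17.9 and 9.57 at stage 6, 10.9 and 6.93 at stage 7, 16.4 and 17.2 at stage 8, and 15.5 and 16.9 at stage 10. Replicate 1 of stage 6 was thus at the level of stages 8 and 10, while replicate 2 of stage 6 was below both samples of stages 4 and 5. Across all genes, replicate 1 of stage 6 had its highest rank correlation with replicate 1 of stage 8 (0.964, against 0.923 with the other stage 6 sample). With replicates 1 and 2 of stage 7 it had 0.939 and 0.901. Replicate 2 of stage 6 had 0.956 and 0.955 with these, and its highest was 0.959 with replicate 1 of stage 4. In 18 of the 20 conditions both samples held the same sorted values. The exceptions were stages 6 and 7, where replicate 1 of each stage shared its sorted values with replicate 2 of the other. Whether labels were exchanged between these 2 stages was not tested. The groups were kept as labelled, and the tests over stages 3 to 8 are also given without these 4 samples where a fit allowed it.

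**Figure D2:**
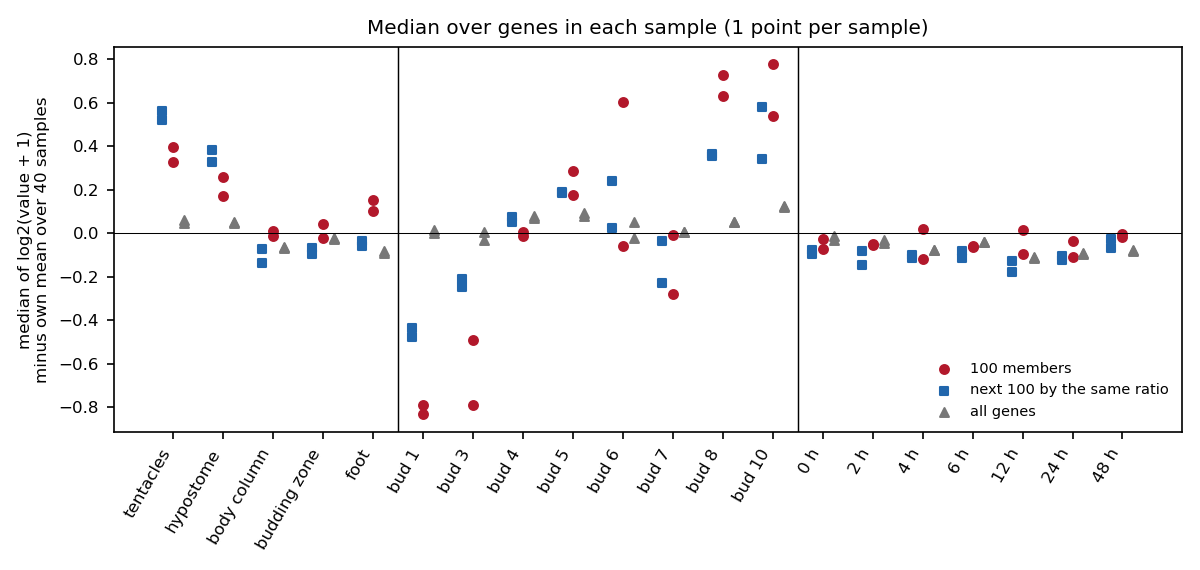
Each point is a sample. The y axis gives the median, over a set of genes, of log2(value + 1) minus each gene's own mean over the 40 samples, for the 100 members (circles), the next 100 genes by the same ratio (squares) and all genes (triangles). The stage 1 samples lie at -0.79 and -0.83 for the members and the stage 10 samples at 0.54 and 0.77, with the regeneration samples between -0.12 and 0.02.

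Stages 3 to 8 show whether the direction that chose the members was also present in samples that did not choose them. The median slope of the members over the order of these 6 stages was 0.16 log2 units per stage, against 0.08 in the next 100 genes and -0.00 over all genes. It was above 0 in 98 members. With limma, 0 members passed an adjusted p of 0.05 in either direction, and so did 0 of the 17438 genes (0% called), while the unadjusted p was below 0.05 for 24 members with a higher and 0 with a lower signal at later stages (898 and 425 of all genes). The slopes of single members were thus not separated from the spread between samples once all genes were taken into account. Without stages 6 and 7, 5 members passed with a rising slope, and 218 of the 17438 genes passed as rising and 70 as falling.

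The mean of stages 6 to 8 minus that of stages 3 to 5 gave a median of 0.36 log2 units, and 94 members lay above 0. Over all genes the median was -0.02. With limma, 0 members passed an adjusted p of 0.05, and 0.0172% of all genes were called in each direction. The unadjusted p was below 0.05 for 12 members in the rising direction and 0 in the falling direction (452 and 479 of all genes). When stages 6 and 7 were left out, the comparison became stage 8 against stages 3 to 5, which is a different quantity. Its median was 0.79 and 4 members passed as higher, while 121 of the 17438 genes passed as higher and 53 as lower. Without replicate 2 of stage 6 alone, 1 member passed as higher, and 40 of all genes passed as higher and 74 as lower.

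The outermost of these stages gave a clearer separation. This comparison was added after the data had been seen. Both stage 8 samples lay above both stage 3 samples in 80 members, against 69 of the next 100 genes and 27.4% of all genes, and below them in 1 member (13.6% of all genes). The median of stage 8 minus stage 3 was 1.20 log2 units in the members, 0.65 in the next 100 genes and 0.05 over all genes, and 96 members lay above 0. With limma, 55 members had an unadjusted p below 0.05 as higher at stage 8 and 0 as lower. The same held for 41 and 0 of the next 100 genes, and for 1886 and 464 of all genes. After adjustment, 3 members passed 0.05 as higher and 0 as lower (0.0975% of all genes in each direction). This count rests on few samples. It was 0 without either of the stage 8 samples, where 16 and 11 of the 17438 genes passed as higher. It was 11 of 151 genes without replicate 1 of stage 3 and 2 of 42 without replicate 2 of stage 3. It was 1 when any of the 4 samples of stages 4 and 5 was left out, where 7 to 11 genes passed, and 7 of 161 genes without stages 6 and 7. The median kept its sign in each of these fits.

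**Figure D3:**
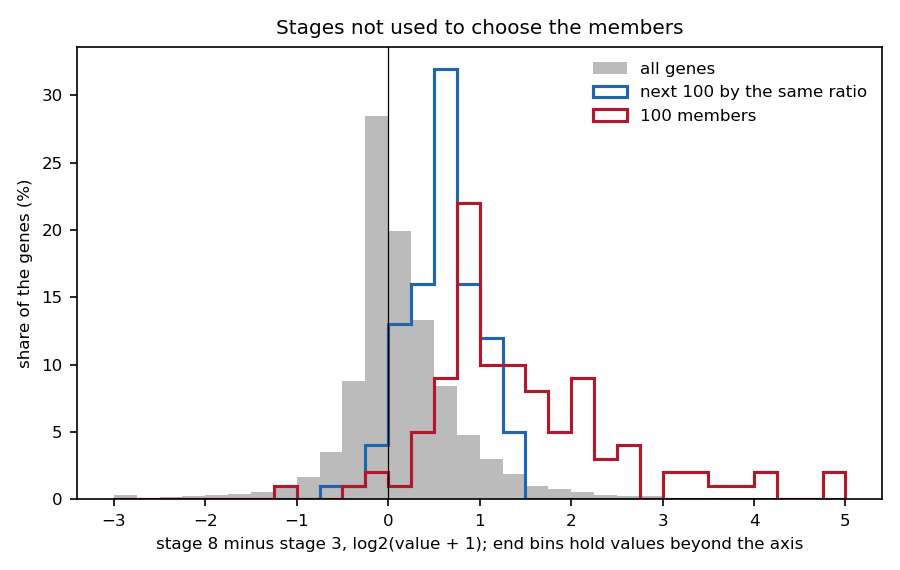
Distribution of stage 8 minus stage 3 in log2(value + 1), as the share of genes in bins, for all genes (grey), the next 100 genes by the same ratio (blue) and the 100 members (red). None of these 4 samples was used to choose the members. The medians were 0.05, 0.65 and 1.20 in this order.

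The 3 members that passed are described here because of that result. The member of rank 16 was listed at 0 in both samples of stages 1 and 3. It was at 9.06 and 19.5 at stage 4, 14.4 and 11.5 at stage 5, 15.0 and 8.36 at stage 6, 10.5 and 6.00 at stage 7, 13.0 and 10.3 at stage 8, and 15.5 and 0.54 at stage 10. Its listed values lay between 6.00 and 19.5 from stage 4 to stage 8, and were near 0 in replicate 2 of stage 10. Outside the buds it lay between 5.56 and 6.75 in all 24 samples, and it is 1 of the near-constant members described below. Whether its values at 0 are failed estimates was not tested. Stage 8 was higher than stage 3 by 3.65 ± 0.41 log2 units (SE, adjusted p = 0.0214, limma). Stage 4 was higher than stage 3 by 3.84 ± 0.41 (SE, adjusted p = 0.0379, limma). No other member passed in the step from stage 3 to 4 (0.0401% of all genes were called higher). In this step, 27 members had an unadjusted p below 0.05 (limma) as higher and 1 as lower (1389 and 329 of all genes). Since stage 3 is listed at 0 in the member of rank 16, the size of both its differences depends on the 1 added before the logarithm.

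The member of rank 25 had the same outline at a lower level. It too was listed at 0 in the 4 samples of stages 1 and 3, was at 5.56 and 8.75 at stage 4, and lay between 1.81 and 8.75 in the 12 samples from stage 4 to stage 10. Stage 8 was higher than stage 3 by 2.63 ± 0.36 log2 units (SE, adjusted p = 0.0459, limma). Outside the buds this member lay between 2.41 and 3.14, and it is also near-constant in the sense described below. The member of rank 38 was present from the start. It was at 8.28 and 8.31 at stage 1, 4.89 and 3.75 at stage 3, 16.6 and 20.3 at stage 4, 25.5 and 28.5 at stage 8, and 19.9 and 35.5 at stage 10. Its stage 8 samples were above its stage 3 samples by 2.40 ± 0.32 log2 units (SE, adjusted p = 0.0404, limma), and stage 3 was its lowest stage. In the adult it was highest in tentacles, at 43.5 and 48.9, and lowest in the body column.

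Of the steps between neighbouring stages, the step from 7 to 8 was the most uniform, with a median of 0.74 log2 units in the fit and 94 members above 0. The next 100 genes had a median of 0.50 with 96 above 0, and 10075 of the 17438 genes lay above 0. With limma, 20 members had an unadjusted p below 0.05 as higher at stage 8 and 0 as lower (1289 and 557 of all genes). After adjustment, 1 member passed as higher (0.0745% of all genes) and 0 as lower (0.086% of all genes). The member of rank 24 was higher by 2.38 ± 0.29 log2 units (SE, adjusted p = 0.0303, limma). It was listed at 0 and 0 at stage 7 and at 4.64 and 3.78 at stage 8, after 0.56 and 0.15 at stage 6. For the steps from 4 to 5, 5 to 6 and 6 to 7, 0 members and 0 of all genes passed with limma in either direction. At an unadjusted p below 0.05, 1, 1 and 0 members were higher and 0, 1 and 4 were lower in these steps. Over all genes, 381, 142 and 315 were higher and 360, 320 and 361 were lower. The lower level of the module at stage 7 was thus seen in the direction of most members and not in calls of single members, and it involves the 4 samples whose sorted values are crossed.

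The gene with the largest ratio was Sc4wPfr_1163.g25197. Its signal was 0 and 0 at stage 1, 188 and 0 at stage 3, 78.7 and 402 at stage 4, 163 and 738 at stage 5, 1245 and 529 at stage 6, 1356 and 652 at stage 7, 1133 and 665 at stage 8, and 229 and 0 at stage 10. The levels of stages 6 to 8 were all above those of the other stages except for replicate 2 of stage 5, and the 2 samples of a stage differed widely. Its ratio of 115.7 rests on replicate 1 of stage 10 alone and on the 1 added to a stage 1 mean of 0. Its slope over stages 3 to 8 was 1.09 ± 0.34 log2 units per stage (SE, adjusted p = 0.654, limma). In the 24 samples outside the buds the same gene was almost constant, between 327 and 343 in regeneration and between 333 and 349 in the adult tissues.

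The gene of rank 2, Sc4wPfr_455.g20428, followed the order of the stages more closely. It was listed at 0 in all 4 samples of stages 1 and 3, and was at 10.8 and 6.76 at stage 4, 47.8 and 49.8 at stage 5, 118 and 44.6 at stage 6, 39.8 and 0 at stage 7, 82.4 and 108 at stage 8, and 71.8 and 90.1 at stage 10. Both samples of stages 8 and 10 lay above every sample of stages 1 to 5. Its slope was 0.91 ± 0.35 log2 units per stage (SE, adjusted p = 0.654, limma). Outside the buds it lay between 29.1 and 31.7 in all 24 samples.

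Slopes below 0 over stages 3 to 8 were found in 2 members, and neither passed the test. Sc4wPfr_224.g18189, of rank 49, was at 1.70 and 3.14 at stage 1, 10.7 and 2.30 at stage 3, 1.77 and 2.94 at stage 4, 4.25 and 0.75 at stage 5, 1.84 and 4.95 at stage 6, 0.80 and 3.42 at stage 7, 2.13 and 1.47 at stage 8, and 8.07 and 8.25 at stage 10. Its slope was -0.17 ± 0.12 (SE, adjusted p = 0.708, limma). Sc4wPfr_1402.g13904, of rank 60, was at 51.9 and 37.8 at stage 1, 248 and 78.6 at stage 3, 60.5 and 59.8 at stage 4, 46.5 and 84.6 at stage 5, 100.2 and 179 at stage 6, 46.0 and 119 at stage 7, 171 and 64.7 at stage 8, and 147 and 76.6 at stage 10. Its slope was -0.00 ± 0.13 (SE, adjusted p = 0.996, limma). In both, 1 sample of stage 3 held the highest value of the series, and the 2 samples of several stages were far apart.

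**Figure D4:**
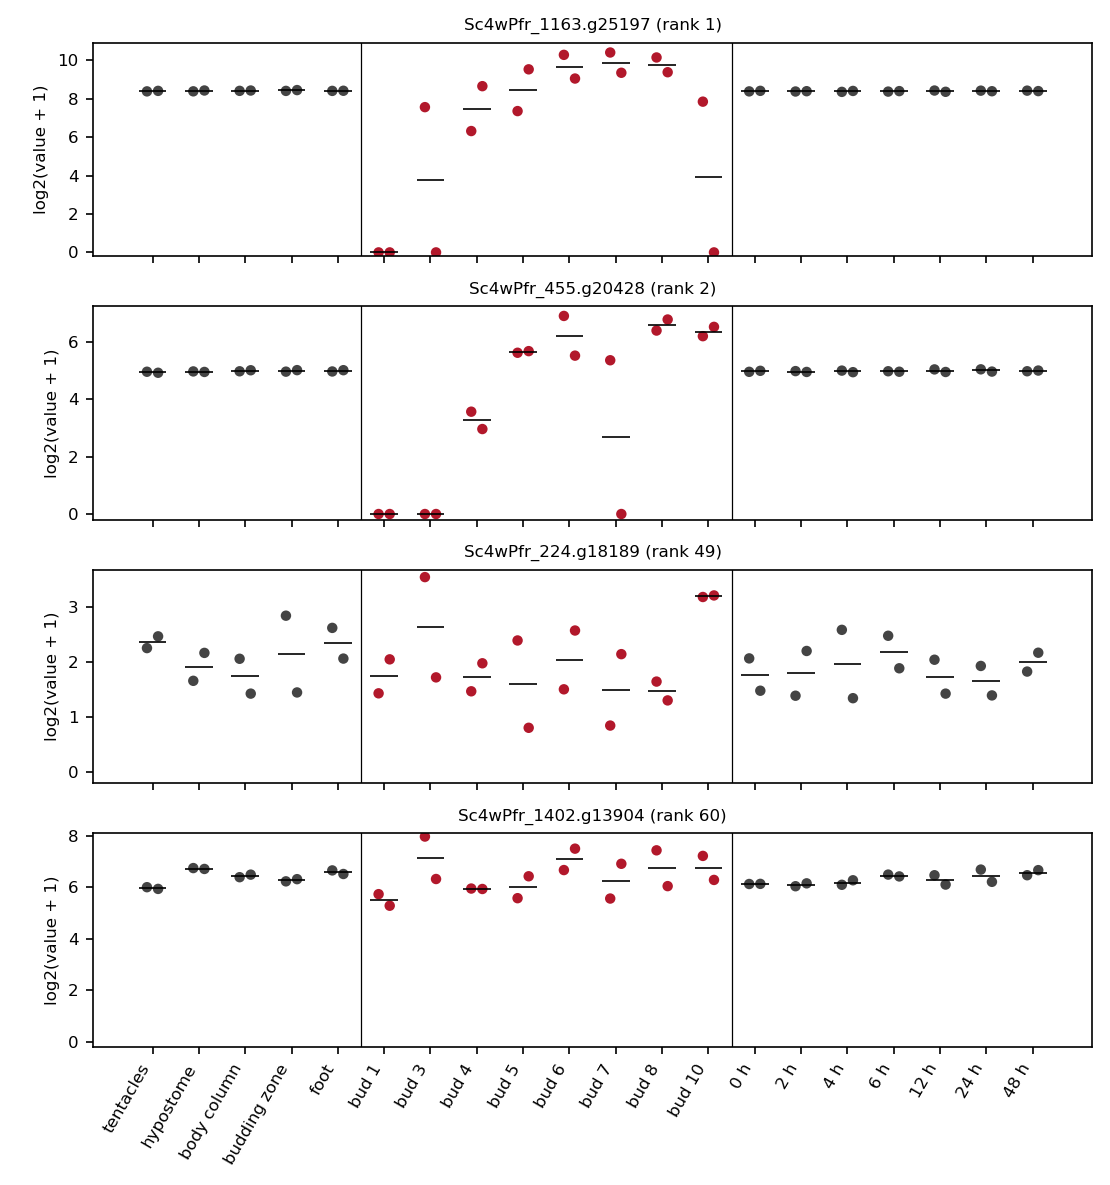
log2(value + 1) of the 4 members with printed identifiers in each of the 40 samples (points, 2 per condition) with the mean of each condition (bar). Bud samples are red and adult and regeneration samples dark grey, and the y axis of each panel has its own scale. The genes of ranks 1 and 2 start at 0 in stage 1 buds and lie on a flat line outside the buds.

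The first 2 genes are examples of a property that the rule did not ask for in this strength. The rule limits regeneration to a 1.5-fold range and allows the tissues to differ by more. In 14 members the coefficient of variation (CV, SD over mean) across all 24 adult and regeneration samples was nevertheless below 5%. This held for 34 of the 17438 genes (0.195%). Since the conditions on tissues and regeneration favour constant genes, the nearer background is the 2593 genes that met them, which held 33 of the 34 (1.27%). Below 10% there were 25 members, 140 of these 2593 genes (5.40%) and 228 of all genes (1.31%), and 6 of the next 100 genes. These 25 members are called near-constant here. They make up 4 of the 5 members with the highest ratios, 7 of the first 10 and 20 of the first 50, against 5 of the other 50.

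Inside the buds the near-constant members were far from constant. Their CV over the 16 bud samples was between 32.0% and 135%, with a median of 78.1%. Their median ratio of stage 10 to stage 1 was 6.05, against 2.55 for the other 75 members. Of the 25, 13 were listed at 0 in a stage 1 sample and 14 in some bud sample, whereas 0 of the 100 members were listed at 0 in any of the 24 samples outside the buds. Over all genes, 4.66% were at 0 in each stage 1 sample and 0.94% to 1.84% in each later bud sample. Outside the buds it was 3.77% to 7.36% per sample. The mean of the near-constant members over the buds was above their mean over the other samples by 0.28 to 0.75 log2 units (median 0.36). For the other 75 members this difference had a median of 0.07, and for all genes -0.03.

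**Figure D5:**
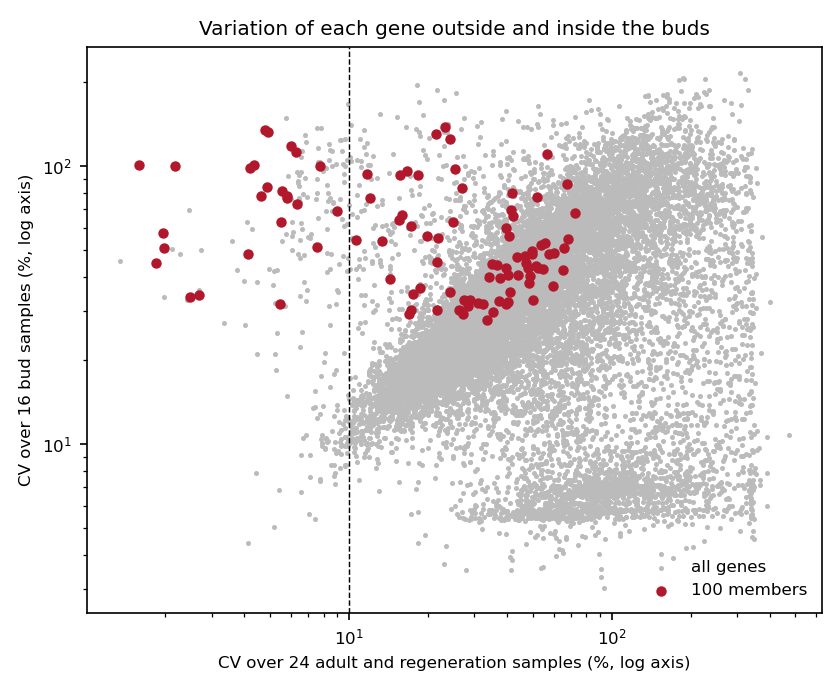
CV of each gene over the 24 adult and regeneration samples (x, log axis) against its CV over the 16 bud samples (y, log axis), for all genes (grey) and the 100 members (red). The dashed line marks 10%. The 25 members to its left vary by 32.0% to 135% within the buds.

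This combination was not particular to genes with a higher signal at stage 10. Of the 34 genes with a CV below 5% outside the buds, 32 had a CV above 20% within them. In 12 the ratio of stage 10 to stage 1 was below 1, down to 0.25, and 8 more had a ratio of at least 1 without being members. In all 34 the bud mean was above the mean of the other samples by more than 0.2 log2 units, which held for 5.79% of all genes. In the 25 of them that were above 0 in every bud sample, this offset lay between 0.23 and 0.36. The paper's methods adjusted TPM for batch effects in its own expression analysis. They do not say whether the deposited values carry that adjustment or which samples formed a batch. The part of such an adjustment in the flat levels outside the buds was not tested, and any batch made up of the bud samples cannot be told apart from budding itself. The ratio of stage 10 to stage 1 compares bud samples with each other, but whether all bud samples formed 1 batch is not stated. The part of such an adjustment in this ratio was not tested either.

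The other 75 members varied more outside the buds, with CVs between 10.6% and 72.5% (median 36.7%). Most had their highest level at the head end. The tentacles were the highest tissue in 46 of the 75, the hypostome in 10, the foot in 9, the budding zone in 8 and the body column in 2. A raised level at the head end was not particular to the module. In log2(value + 1) against each gene's own mean, the next 100 genes had medians of 0.52 and 0.56 in the tentacle samples. All members together had 0.33 and 0.40, and all genes 0.06 and 0.05. In the hypostome samples the next 100 genes had 0.38 and 0.33, and the members 0.26 and 0.17. Of the 25 near-constant members, 1 was highest in tentacles and 15 in the body column, though by small margins. In the 46 members the median level was 25.7 in tentacles, 19.3 in hypostome, 14.3 in foot, 12.3 in budding zone and 11.7 in body column. Both tentacle samples lay above both body column samples in 42 of them, an order that their choice favours and that 43.6% of all genes also showed.

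In the same 46 members the buds went from a level below the adult body column to one near the adult hypostome. Their median was 6.12 at stage 1, 6.95 at stage 3, 14.2 at stage 4, 15.7 at stage 5, 16.5 at stage 6, 10.2 at stage 7, 20.7 at stage 8 and 21.2 at stage 10. Stage 10 was above the tentacles in 11 of them. The median ratio of stage 10 to tentacles, with 1 added to each, was 0.83, a low value that the choice of these members by tissue favours. Their median ratio of stage 10 to stage 1 was 2.31. Both stage 8 samples lay above both stage 3 samples in 40 of the 46. The member of rank 3, with 18.4 and 17.1 in tentacles, is among them. It was at 0 and 0 at stage 1, 58.8 and 31.1 at stage 8, and 24.8 and 84.2 at stage 10, with 24.5 and 0 at stage 6 and 0 and 0 at stage 7.

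The remaining 29 members had no common tissue. Their median level in the adult lay between 7.06 in body column and 8.04 in hypostome, and it was 3.41 at bud stage 1 and 10.8 at stage 10. Stage 10 exceeded the tentacles in 25 of the 29, and the median ratio was 2.00. The split by highest tissue favours this contrast with the 46. Both stage 8 samples lay above both stage 3 samples in 18. In 10 of the 29 a bud sample was listed at 0, as against 5 of the 46 with the highest level in tentacles.

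Set against the adult and regenerating animal, a low start was more common among the members than a high end. The stage 1 mean was below all 12 adult and regeneration means in 87 members, while the stage 10 mean was above all 12 in 49. Stage 10 was above all 7 regeneration times in 94 members and above all 5 tissues in 50. These counts rest on values that the rule used, and the choice of large ratios favours a low stage 1 and a high stage 10. The same counts over all genes are not given here. With 1 added to each mean, the median ratio of stage 1 to the adult budding zone, the tissue from which a bud arises, was 0.54 (0.97 over all genes), and 2 members lay above it. The median ratio of stage 10 to 48 h of regeneration was 1.69 (1.17 over all genes), and 96 members lay above 1. At stage 1, 16 members were listed at 0 in both samples and 6 in 1 sample. Both samples were at 0 in 3.03% of all genes.

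Regeneration was level, as the rule required. The member median lay between 8.16 at 12 h and 9.06 at 48 h. The highest time exceeded the lowest by a median factor of 1.28 (from 1.01 to just under the limit of 1.5), against 1.70 over all genes. The highest of the 7 times was 48 h in 33 members, 4 h in 16, and 0 h and 24 h in 14 each. From 0 to 48 h the median ratio was 1.02, and 61 members were higher at 48 h. At 48 h the module thus lay between the bud medians of stages 3 and 4 and near that of the adult body column, which was 9.43. The tentacle median was 15.8, that of the hypostome 13.8, that of the foot 11.1 and that of the budding zone 10.1. Across the 5 tissues the highest exceeded the lowest by a median factor of 1.70 (range 1.02 to 3.87).

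The rule was also applied to the replicates separately, so that the ratio of stage 10 to stage 1 could be read in samples that had not chosen the genes. The 100 genes chosen in replicate 1 had a median ratio of 2.55 there and of 2.00 in replicate 2, where 78 were above 1 and 68 above 1.5. In replicate 2, 50.3% of the genes that met the conditions in replicate 1 were above 1 and 16.1% above 1.5, and of all genes 59.0% and 25.3%. The 100 chosen in replicate 2 had a median ratio of 2.65 there and of 1.79 in replicate 1, where 94 were above 1 and 68 above 1.5. In replicate 1, 51.4% of the genes that met the conditions in replicate 2 were above 1 and 15.3% above 1.5, and of all genes 53.4% and 24.8%. The ratios were thus smaller in the replicate that had not chosen the genes. The sets themselves overlapped less, with 22 genes in common. Of the genes chosen in replicates 1 and 2, 48 and 44 were among the 100 members.

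The scaffold names in their identifiers placed the members on 86 of 1527 scaffolds, with at most 3 on any of them. Of the members, 25 lay on 11 scaffolds that held several members. Neighbouring members on a scaffold formed 14 pairs, and 8 of these had no listed gene between them. Whether members shared scaffolds more often than randomly drawn genes was not tested. In 6 pairs the members carried consecutive gene numbers on a scaffold. Over the 16 bud samples these pairs had correlations between 0.76 and 0.95 (median 0.91). The median over all pairs of members was 0.55, and over 10427 consecutive pairs of all genes it was 0.13. These are descriptions over samples that share stages, and the counting method was not checked for reads shared between neighbours.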

How the data were processed

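RNA-seq was performed on 40 samples of H. vulgaris with a modified Smart-seq2 protocol. Reads were trimmed (Trimmomatic 0.35), mapped to a transcriptome (Bowtie 1.2) and quantified (RSEM 1.2.31), per the submitters' processing notes. For its expression analysis the paper adjusted TPM with ComBat and qsmooth, and it does not say whether the deposited file holds adjusted values. The deposited values were taken as a signal on the TPM scale, because their sums per sample ranged from 997030 to 1014380 and both samples of most conditions held the same sorted values. Equal sorted values mean that these samples had been normalized to a shared distribution. Whether ComBat was applied as well is not stated. Between 164 and 1284 genes were at 0. The tests, planned for TPM, were kept. The files give no depth, so the precision it would allow is unknown.

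All 40 columns were matched to samples by name. For stages 3 to 8, log2(value + 1) was fitted with limma 3.58.1 (R 4.3.3, eBayes with trend) on genes above 0 in at least 2 of 12 samples, which all 17438 were. Tests were two-sided, with Benjamini-Hochberg adjustment over all genes and a threshold of 0.05. The fits were tested on simulated data. The printed identifiers are the 2 largest ratios and the 2 lowest slopes. Members and lists were chosen with earlier results of these data known. The paper's methods call the 2 replicates biological. How many animals went into a bud or tissue sample is not stated, and the p-values measure the spread between samples whose values had shared distributions. Alternatives changed the pseudocount (0.1), the filter (a value of 1, or none), the normalization (quantile or median-ratio), the x axis and the limits of the rule, added the replicate number as a block, or left out each sample or stages 6 and 7.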

Additional observations from a re-analysis of the deposited data

How the results depend on the processing

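Over stages 3 to 8, 0 members passed with a rising slope under 19 of 20 alternatives, and 5 passed without stages 6 and 7, where 218 genes in all passed as rising and 70 as falling, against 0 and 0. For stages 6 to 8 against 3 to 5, the 2 exceptions were the fit without stages 6 and 7 (4 members and a median of 0.79 log2 units) and those without a replicate, which ranged from 0 to 1. In all genes the alternatives gave from 0 to 121 higher and from 0 to 74 lower, against 3 and 3. Without stages 6 and 7, the comparison of stages 6 to 8 against 3 to 5 was reduced to stage 8 against stages 3 to 5. In that form Sc4wPfr_455.g20428 passed (3.61 log2 units, adjusted p = 0.009, limma). The count for stage 8 minus stage 3 was 1 with median-ratio scaling, quantile normalization or the replicate block, 7 without stages 6 and 7, and from 0 to 11 without a replicate. In all genes that comparison gave from 7 to 161 higher and from 9 to 39 lower over the alternatives, against 17 and 17. The replicate number was not used to pair the samples in the main fit. Over the 15 pairs of stages, deviations of samples with equal numbers correlated between -0.26 and 0.36. Of these, 1 was above 0.1 and 3 were below -0.1. The block changed no call of the slope or of stages 6 to 8 against 3 to 5 among the members. The cause of these shifts was not tested. The median of the members changed sign in 0 of these alternatives. No printed gene passed in the direction opposite to the main fit. Sign changes of printed genes that did not pass were not counted.

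The rule kept 54 of the 100 members with a regeneration range below 1.3, 68 with a stage 10 minimum of 10, 68 after quantile normalization, 71 after median-ratio scaling and 78 with 0.1 added. Leaving out a replicate of stage 1 or 10 kept 69 to 81. With 2 samples per condition, an unknown depth and values at 0 that may be failed estimates, ratios against stage 1 are uncertain in size for the 22 members listed at 0 there.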
